A study of Caenorhabditis elegans with 2 samples.

Results

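The genes described here encode the nuclear subunits of the mitochondrial respiratory chain, cytochrome c, the ATP synthase and the factors that assemble cytochrome c oxidase in Caenorhabditis elegans. They were picked by gene name alone (nuo, ndua, ndub, nduc, nduf, ndus, nduv, sdha to sdhd, mev-1, gas-1, isp-1, ucr, cyc, cox, cco and atp with a number), which gave 66 of the 19973 protein-coding nuclear genes of the annotation. Complex I accounted for 32 of them, complex II for 5, complex III for 7, cytochrome c for 2, complex IV for 7 subunits and 8 assembly factors, and complex V for 5. All 66 were found in RefSeq by symbol. The binding data were ChIP-seq peaks (chromatin immunoprecipitation followed by sequencing) of CEH-44, a CUT family homeobox protein. Worms of strain RW12327 carried ceh-44::TY1::EGFP::3xFLAG, an insertion made by CRISPR at the gene's own locus on chromosome III, and tagged protein was pulled down through its GFP part. There was 1 group with 2 biological replicates of L4 larvae, 49 hours old, grown from a population synchronised by bleaching and starvation at L1. Chromatin was sonicated to 200 to 800 bp. No untagged strain, other stage or other condition was compared, so no test between groups was possible. Whole larvae were used, and a peak cannot be assigned to any cell type.

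Respiratory complexes I, III and IV pass electrons from NADH to oxygen and pump protons across the inner mitochondrial membrane. Complex II feeds in electrons from succinate without pumping, ubiquinone and cytochrome c carry electrons between complexes, and the ATP synthase (complex V) uses the proton gradient to make ATP. Most subunits are encoded in the nucleus and imported, while a few core subunits are encoded in mitochondrial DNA. CEH-44 belongs to the CUX branch of the CUT proteins, which bind DNA through CUT domains and a homeodomain, and it is known for its expression across the nervous system.

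The reference sequences at 5 of the 8 promoter summits described below are shown. They differ in what lies under the peak: plain intergenic sequence, or an exon or intron of a neighbouring gene. A summit is the base of highest enrichment in a peak. Each window runs from 50 bp before to 50 bp after the summit, 101 bases, on the ce11 (WBcel235) assembly, taken from the RefSeq genome and written 5′ to 3′ on the strand of the respiratory gene. The windows are those of cox-5A (chrIII:12905132-12905232, plus strand), atp-5 (chrV:11124078-11124178, minus strand), cyc-2.1 (chrIV:4749447-4749547, minus strand), nduc-2 (chrIII:2786020-2786120, plus strand) and ndua-8 (chrIII:2528775-2528875, plus strand). Capitals mark 68 bases inside an exon of rpl-20 at cyc-2.1. In the remaining windows capitals mark a match to 1 of 4 searched words (ATCGAT and ATCAAT, and also ATTAAT and GAGAGA) on either strand, and nduc-2 holds the one such match, ATCAAT on the opposite strand.
cox-5A: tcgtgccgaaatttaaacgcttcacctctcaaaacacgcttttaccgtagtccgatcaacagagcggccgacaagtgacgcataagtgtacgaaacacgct
atp-5: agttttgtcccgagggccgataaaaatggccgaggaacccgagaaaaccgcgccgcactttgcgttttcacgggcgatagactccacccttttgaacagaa
cyc-2.1: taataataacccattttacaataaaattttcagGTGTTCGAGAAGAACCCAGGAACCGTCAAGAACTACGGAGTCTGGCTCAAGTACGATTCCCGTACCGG
nduc-2: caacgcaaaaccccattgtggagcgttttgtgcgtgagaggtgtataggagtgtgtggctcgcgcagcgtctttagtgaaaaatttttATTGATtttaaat
ndua-8: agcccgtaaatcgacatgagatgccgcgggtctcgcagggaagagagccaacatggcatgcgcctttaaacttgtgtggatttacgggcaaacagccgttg

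Promoters of 8 of the 66 genes held a CEH-44 peak: the cytochrome c oxidase subunit genes cox-5B, cox-5A and cox-6A, the ATP synthase genes atp-5 and atp-1, the cytochrome c gene cyc-2.1, and the complex I genes nduc-2 and ndua-8. A gene was called bound when the larger thresholded list of the series had a summit in its promoter, the window between 1000 bp before and 200 bp after its most upstream annotated start. That list held 1027 peaks made from both replicates. Candidates of any strength came from the matching ranked list of 115557 peaks, and 58 of the 66 genes had at least 1 candidate in the window. The bound share was thus 13.8% (8 of 58, exact 95% Clopper-Pearson interval 6.15 to 25.4%, counting error only), beside 3.71% of all 16131 coding genes with a promoter candidate. With all genes as the denominator the shares were 12.1% and 2.99%. The genes were chosen with earlier results of these peaks known and share 2 libraries. The interval is therefore no test against 3.71%, and the difference between the shares is a description and was not tested.

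The other 3 lists held all or part of these peaks. All 8 were also bound in the list the authors named conservative, 8 of 62 with a candidate (12.9%) against 3.65% of coding genes. In the list of replicate 1 alone 4 of 48 were bound (8.33%, against 2.31%), and in that of replicate 2 alone 6 of 48 (12.5%, against 2.64%). These replicate lists were shorter, with 387 and 525 peaks. The median signal, the authors' deposited value for a peak's strength, whose scale they do not state, was 50.02 and 55.9 in them and 75.96 in the larger series list. Read depth is not given in the sources used here, so no interval could be set on a signal.

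Complex IV held the top 2 of the 8 peaks, at cox-5B and cox-5A, and the fourth, at cox-6A. Bound were 3 of the 6 subunit genes with a candidate (50%, beside 3.71% of all coding genes). All 3 were in both replicates' own lists. cox-5B (WBGene00000371), a nuclear subunit beside the catalytic core, had the strongest peak of all 66 genes (chromosome I, 9788562 to 9788817). The series list gave it a signal of 140, and the replicates' own lists 66.96 and 65.6 (replicates 1 and 2), and the summit was intergenic, 35 bp upstream of the start. That peak ranked 75 of 1027, so 92.7% of the list was weaker. The replicates were nearly equal there, and no other coding window held the summit.

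cox-5A (WBGene00012553), another nuclear subunit of the oxidase, had an intergenic peak on chromosome III (12905054 to 12905309) with a signal of 126, rank 112. The signal was 53.6 in replicate 1 and 73.6 in replicate 2, and the summit lay 309 bp upstream of the start. It too was the sole coding gene at its peak. cox-6A (WBGene00006519), a further subunit, had a signal of 106, rank 207, with 57.4 and 58.9 in the replicates. The summit lay 856 bp upstream of cox-6A, inside a small RNA gene. Of all 30-base words within 100 bp of this summit, 47.7% occurred elsewhere in the genome, against 0% at the other 7 bound genes. How reads from repeated sequence were assigned is not given in the sources used here. It was the only one of the 8 within 250 bp of a tRNA, snoRNA or snRNA gene. Without such summits 7 of 58 genes were bound (12.1%), beside 3.16% of all coding genes with a candidate. Complex IV then had 2 of 6 subunit genes bound.

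The other complex IV subunit genes were not bound. For genes not bound, here and below, values in brackets are each replicate's strongest candidate anywhere in the promoter window. These were not matched to the site of the series candidate and may lie elsewhere in the window. cox-6C had a best candidate of signal 43.4 (9.41 in replicate 1, 33.7 in replicate 2), cox-4 one of 33.97 (14.02 and 19.8), and cox-7C one of 26.1 with none in either replicate's own ranked list. cox-6B had no candidate near its most upstream start, but the annotation stretches this gene over 87197 bp, and a second transcript starts near the nduc-2 peak. The 8 assembly factors insert haem and copper or help to build the enzyme. None of the 6 with a candidate was bound, beside 3.71% of all coding genes. Before cox-11, cox-15, cox-17, cox-18 and cox-19, a coding gene on the same strand ends 96 to 119 bp upstream of the start. Their windows thus reach past the end of that gene, and whether they hold the promoter in use was not tested. Among all genes picked by name, 21 had such a gene ending within the window, the bound cyc-2.1 included. The highest signal among the 6 was that of cox-10, the haem farnesyltransferase, with 34.01 (20.2 and 22.4) and a −log10 IDR of 0.93. IDR, the irreproducible discovery rate, is the expected share of peaks at least as high in rank that do not repeat, and every thresholded peak had a −log10 IDR of at least 2.

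Of the 5 complex V genes, 2 were bound (40%, beside 3.71% of all coding genes). atp-5 (WBGene00007385), subunit d of the stalk that holds the catalytic head still, had a signal of 114.5, rank 156, with 57.9 in replicate 1 and 66.97 in replicate 2 (chromosome V, 11124000 to 11124255). The peak was in both replicates' own lists. Its summit was intergenic, 261 bp upstream of atp-5 but only 58 bp upstream of lmtr-3, the divergent gene of a Ragulator subunit. The peak therefore counts for both genes, and lmtr-3 has the nearer start. atp-1 (WBGene00010419), the alpha subunit of the catalytic head, had a signal of 67.2, rank 682, with 27.3 and 39.6 in the replicates (chromosome I, 12652174 to 12652429). The summit lay in the gene's own exon, 25 bp downstream of the start, and 215 bp upstream of the divergent mcrs-1. Replicate 2's list held this peak and replicate 1's did not. The catalytic beta subunit gene atp-2 reached 34.04 (13.5 and 28.1), atp-3, which encodes the oligomycin sensitivity-conferring protein, 42.6 (none in replicate 1, 34.6 in replicate 2), and atp-4, for coupling factor 6, 19.7. These 3 were not bound.

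Of the cytochrome c genes, cyc-2.1 (WBGene00017121) had a peak of signal 73.2, rank 567 (chromosome IV, 4749369 to 4749624), and its paralogue cyc-2.2 had no candidate. The signal was 39.1 in replicate 1 and 35.6 in replicate 2. Neither replicate's own list held the peak, although the series list and the conservative list did. The summit was 485 bp upstream of cyc-2.1 in an exon of rpl-20, a ribosomal protein gene of the large subunit on the same strand, 281 bp downstream of its start. rpl-20 ends 111 bp before the start of cyc-2.1, and Y17G9B.5, 743 bp away, shared the peak. With starts taken at the start codon, cyc-2.1 was no longer bound.

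Of the complex I genes, 2 of 30 with a candidate were bound (6.67%, beside 3.71% of all coding genes). nduc-2 (WBGene00022169), an accessory subunit, had a signal of 72.7, rank 578, with 27.6 in replicate 1 and 44.5 in replicate 2 (chromosome III, 2785942 to 2786197). The peak was in replicate 2's list alone. Its summit lay 782 bp upstream of nduc-2, in an intron of cox-6B, and 122 bp upstream of the divergent Y71H2AM.20, the nearest start. It was also 132 bp upstream of the second transcript start of cox-6B, whose 3′ end overlaps the first 8 bases of nduc-2. With any transcript start allowed, cox-6B joined the bound genes through this peak, and the count rose to 9 of 60 (background 4.03%).

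ndua-8 (WBGene00021849), the other bound accessory subunit of complex I, had a signal of 69.02, rank 651 (chromosome III, 2528697 to 2528952). It had 23.4 in replicate 1 and 46.8 in replicate 2, the widest gap between replicates among the 8, and neither replicate's own list held it. Its −log10 IDR of 2.22 was the lowest of the 8. The intergenic summit was 238 bp upstream of ndua-8, 136 bp upstream of rbc-2, a rabconnectin gene, and 146 bp upstream of Y54F10AM.15. ndua-8 is the upstream neighbour of the tagged locus, which the annotation files under the overlapping gene cone-1. It ends 111 bp before the start of that shared locus, and the summit lay 1788 bp upstream of the same start.

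Among complex I genes that were not bound, 1 was close to the threshold. nuo-1, the flavoprotein that receives electrons from NADH, had a signal of 55.5 (20.8 in replicate 1, 35.04 in replicate 2) at 305 bp upstream, with a −log10 IDR of 1.98. nuo-2, which RefSeq names NADH dehydrogenase iron-sulphur protein 3, reached 53.3 (21.5 and 32.1) with a −log10 IDR of 1.26. ndua-7 reached 50.8 (19.8 and 28.7) with 1.02, and both were farther from the threshold. At the other end, gas-1, a core subunit of the quinone site, had 8.12 (3.79 in replicate 1, 17.1 in replicate 2). ndua-13 had 6.27 in the series list, the lowest of all. nduf-7 and ndub-11 had no candidate. Between these ends the 30 genes had a median of 26.4 (quartiles 19.2 and 36.04), and 17 of them were above the median of all coding genes.

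Complexes II and III had no bound gene among 5 with a candidate in each, beside 3.71% of all coding genes. Both complexes had genes just below the threshold. In complex II, sdhd-1, a membrane anchor subunit, had a signal of 56.02 (20.6 in replicate 1, 35.6 in replicate 2), the highest of any gene that was not bound, at 943 bp upstream with a −log10 IDR of 1.61. mev-1, the cytochrome b560 anchor, had 52.9 (22.7 and 31.4) at 114 bp upstream with a −log10 IDR of 1.90. The flavoprotein genes sdha-1 and sdha-2 and the iron-sulphur subunit gene sdhb-1 lay between 16.3 and 26.99. In complex III, ucr-2.1, a core subunit gene, had 54.5 (27.2 and 27.9) at 320 bp upstream with a −log10 IDR of 1.88, and isp-1, the Rieske iron-sulphur protein, 38.5 (27.2 and 14.8). The remaining genes, ucr-2.3, ucr-1 and ucr-11, ran from 33.004 down to 8.87, and cyc-1 and ucr-2.2 had no candidate. The nearest peak to ucr-11 was just outside the window, 1311 bp upstream with a signal of 111. Its summit lay in an exon of the noncoding RNA gene F57B10.17. A peak of 114 lay 1397 bp upstream of the complex I gene nduv-3. That summit was in an exon of mdf-2, 33 bp from a tRNA, snoRNA or snRNA gene.

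The difference between complexes was not tested. The median best signal was 74.5 for complex IV subunits, 42.6 for complex V, 33.004 for complex III, 27.7 for complex IV assembly factors, 26.99 for complex II and 26.4 for complex I. Ranges overlapped in every pair of these: complex IV subunits ran from 26.1 to 140, and complex I from 6.27 to 72.7. With 5 or 6 genes in 5 of these groups, the medians rest on few values. The complex IV median falls in a gap, with cox-6A at 106 above it, cox-6C at 43.4 below it and no gene between. The plot of best candidates by complex shows each gene.

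**Figure D1:**
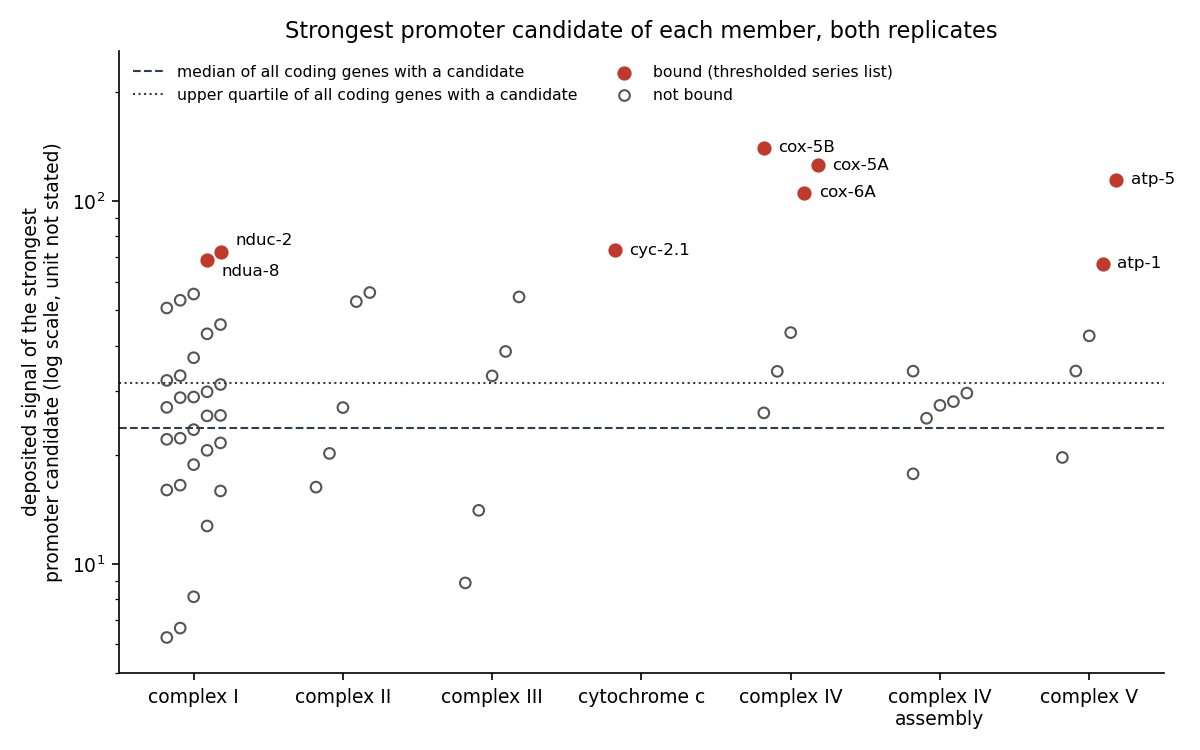
Deposited signal of the strongest promoter candidate of each of the 58 genes with one (log scale), by complex; filled points are the 8 bound genes and open points the rest. Complex IV and complex V hold the 4 points above 100, every filled point lies above 67, and no open point exceeds 56.02.

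The best candidates lay above the coding median in most of these genes. Over all 58 genes the best candidate had a median signal of 29.2 (quartiles 20.8 and 45.2), beside 23.8 (17.4 and 31.6) over all coding genes with a candidate. Of the 58, 39 were above that coding median, 26 (44.8%) above the coding upper quartile and 18 (31.03%) above the coding 90th percentile of 41.96. With bound genes left out on both sides, the medians were 27.2 and 23.3. The number of candidates in a window had a median of 2 in both sets. These are descriptions of the chosen genes beside the whole, without a test.

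The signals of the replicates rose together over these genes, with the bound ones included. Each replicate's own ranked list had a candidate for 48 of the 66 genes, with median best signals of 18.01 in replicate 1 and 19.6 in replicate 2 (13.8 and 16.5 over coding genes). For the 40 genes with a candidate in both, Spearman's rho of the signals was 0.69 and Pearson's r of log2 signal 0.70. Over 8107 coding genes rho was 0.37. The 40 genes include the 8 bound ones, whose peaks passed a threshold on repeating between replicates. No rho was computed without them, so the difference between these rho values cannot be read as closer agreement. The points share 2 libraries, and genes are not independent replicates. Of the 8 bound genes, cox-5B, cox-5A, cox-6A and atp-5 formed the top 4 in both replicates and were in both own lists. nduc-2 and atp-1 were in replicate 2's list alone, and cyc-2.1 and ndua-8 in neither. Presence in the replicates' lists was not counted over all 1027 series peaks, so 4 of 8 cannot be called high or low. For scale, 598 coding genes were bound in the series list, 263 in replicate 1's list and 321 in replicate 2's list.

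**Figure D2:**
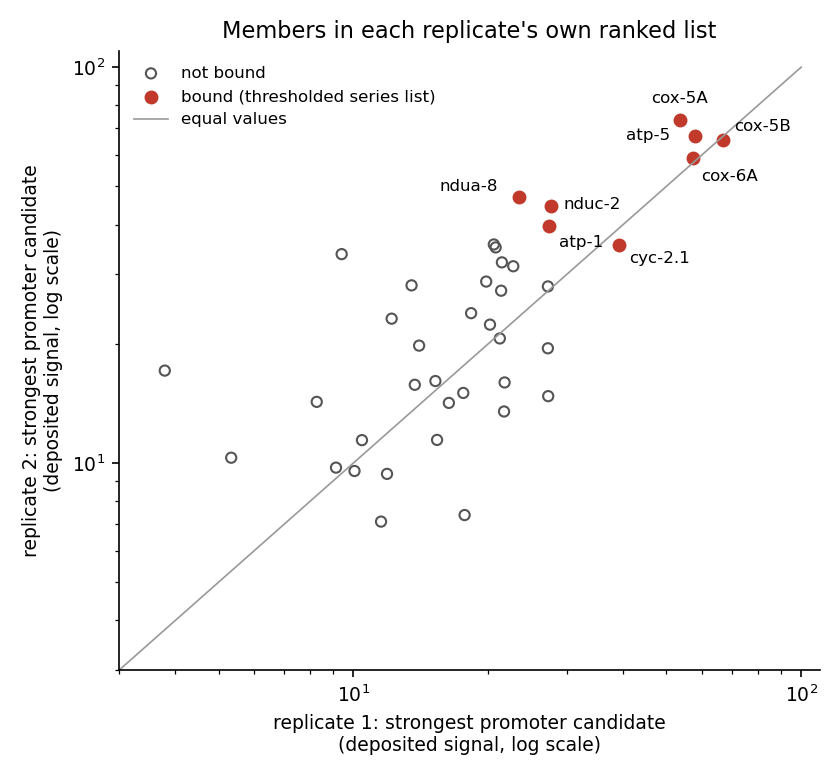
Deposited signal of the strongest promoter candidate in replicate 1 (horizontal, log scale) and replicate 2 (vertical, log scale) for the 40 genes with one in both replicates' ranked lists, with the line of equal values. The filled points of cox-5B, cox-5A, cox-6A and atp-5 lie above 50 on both axes, apart from all other genes, and the other 4 bound genes lie nearer to the open points.

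The positions of the 8 summits were near those of bound genes in general. They ran from 856 bp upstream to 25 bp downstream, with a median of 285 bp upstream, beside 295 bp (quartiles 518 and 162) over all 598 bound coding genes. Of the 8 summits, 5 also lay in the window of another coding gene, and 3 (cox-5B, cox-5A and cox-6A) did not. Over all 598 bound coding genes, 321 (53.7%) shared a summit in this way. The respiratory gene had the nearest coding start at 4 of the 8, those 3 and atp-1, beside 423 of the 598 (70.7%). When a summit counted for the closest coding start alone, 4 of 42 genes were bound, against 2.93% of coding genes. The median GC content within 50 bp was 49.5% for these summits and for all 444 thresholded promoter summits.

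**Figure D3:**
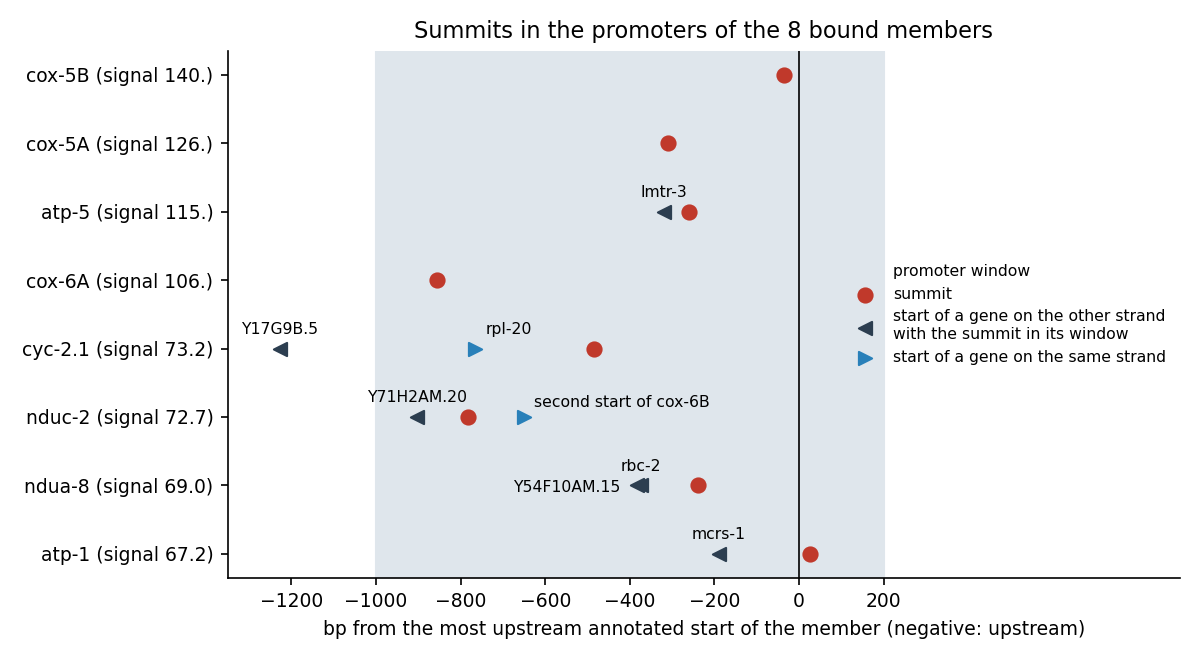
Position of the summit (circle) relative to the most upstream annotated start of each of the 8 bound genes, in bp, with the promoter window shaded and the starts of neighbouring genes as triangles. At atp-5, nduc-2 and ndua-8 a divergent start lies closer to the summit than the respiratory gene's own start, and at cyc-2.1 the start of rpl-20 on the same strand does.

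The searched words were found at 1 of these summits. Within 50 bp on both strands, ATCAAT occurred at 1 of the 8 (nduc-2, the capitals in its window), and each of the other words at 0 of 8. No word contains another word or the reverse complement of another. ATCGAT and ATTAAT are each their own reverse complement. Over all 444 thresholded promoter summits the shares were 5.18% for ATCAAT, 4.28% for ATCGAT, 2.93% for ATTAAT and 17.3% for GAGAGA. Over 24237 promoter candidates that did not pass they were, in the same order, 9.67%, 3.63%, 4.67% and 6.94%. At the best candidates of the 50 respiratory genes that were not bound, 3 held ATCAAT, 4 ATCGAT, 2 ATTAAT and 4 GAGAGA. Within 100 bp, 3 of the 8 summits held ATCGAT or ATCAAT, beside 22.3% of thresholded promoter summits.

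Genes of connected mitochondrial pathways, listed by function, were bound at 5 of 51 with a candidate, beside 3.71% of all coding genes. The difference of each list from that share was not tested. Of the pyruvate dehydrogenase and citric acid cycle genes 2 of 14 were bound: aco-2, mitochondrial aconitase (signal 77.7; 41.05 in replicate 1, 33.9 in replicate 2), and dld-1, the dihydrolipoamide dehydrogenase shared by both (58.5; 11.7 and 37.2). The aco-2 summit lay 845 bp upstream, nearer to the start of eef-1B.1, a translation elongation factor gene. Of the ADP/ATP carriers, which exchange ATP for ADP across the inner membrane, 1 of 4 was bound: ant-1.1 (73.6; 21.5 and 52.8), which shared its peak with abcf-2 and T27E9.2. asb-2, a stalk subunit of ATP synthase that the naming rule misses, was bound (90.9; 49.8 and 42.3), 1 of 6 in its list. sco-1, a copper chaperone of complex IV, was bound too (81.8; 45.8 and 38.3), 1 of 4. None of these 5 peaks was in both replicates' own lists. Ubiquinone synthesis (0 of 8) and protein import with inner membrane organisation (0 of 15) had no bound gene. In the conservative list dld-1 was not bound and tomm-20, a receptor for protein import, was.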

How the data were processed

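CEH-44 ChIP-seq peak lists of 2 biological replicates of whole L4 larvae were used, on ce11 per the labels. Per the file headers and descriptions deposited with them, each replicate had a ranked and a thresholded list, and both replicates entered 2 ranked and 2 thresholded series lists. For the aligner, the peak caller and the depth, nothing is given in the sources used here. The authors' deposited signal has no stated scale, their deposited score is a scaled IDR, and a column of the ranked lists is the authors' −log10 global IDR. Control data were not analysed here, and 3 of the 8 summit windows are not reported here. Replicate numbers come from the labels.

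Summits were placed on Ensembl release 115 (WBcel235), and sequences read from RefSeq's genome of the same assembly, with Python 3.11.15, pandas 2.3.3, numpy 2.4.6, scipy 1.17.1 and matplotlib 3.10.9. Peaks in a replicate's list overlapped the series peak by at least 1 bp. Placement was tested on simulated data. The members, lists, windows and words were chosen with earlier results of these data known. Named by rule were all bound genes, genes at −log10 IDR of 2 or more and the highest-ranked gene of each other complex. So were neighbours sharing a peak and the 3 genes that ranked next below the bound ones by signal (sdhd-1, nuo-1, ucr-2.1). The threshold itself was on IDR, where mev-1 (−log10 IDR 1.90) was nearer to it than sdhd-1 (1.61). Other genes were named after their values were seen, to account for the set. Alternatives were other lists, windows, starts, denominators and word distances.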

Additional observations from a re-analysis of the deposited data

How the results depend on the processing

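The share of bound genes was above that of all coding genes in 15 of 15 settings, by 3.26 to 4.73 times. These settings recount largely the same peaks of the same 2 libraries, so they are not independent of each other. The count of 8 became 4 in the stronger part of the list (4 of 58, 6.90% against 2.00%) and 4 with the nearest start only (4 of 42). With 1 replicate's own list it was 4 (without replicate 2) to 6 (without replicate 1). It was 6 of 48 with 500 bp upstream (background 3.42%) and 9 of 64 with subunits named otherwise (background 3.71%). With 2000 bp it was 10 of 63 (background 4.64%), which added nduv-3 and ucr-11. The median best signal of 29.2 moved to 27.5 when candidates were picked by IDR, 26.3 with 500 bp and 36.0 with 2000 bp, with 22.9, 21.6 and 27.3 over coding genes, and was 18.01 to 19.6 with 1 replicate's list, on that list's own scale. Of the 8 peaks, 4 were in both replicates' lists under either overlap rule. Words ATCGAT or ATCAAT were at 1 of 8 summits, at 3 with 100 bp, and at 0 of 4 to 2 of 6 with 1 replicate's list. For the complexes with a bound gene, the count moved by over 1.5 times in 13 of 56 recounts. Complex I fell from 2 to 0 in the stronger part of the list, in replicate 1's own list and with the nearest start only. In the same settings cytochrome c fell from 1 to 0 and complex V from 2 to 1. Cytochrome c was also at 0 in replicate 2's own list and with start codons. Complex IV ran from 2 to 4. The causes of these changes were not tested. No paired analysis was possible because there was 1 group and no comparison between groups. Depth limits are unknown, peaks of whole larvae average all cells, and a shared summit cannot be assigned to 1 gene.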

Other observations

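Subunits that the naming rule misses were looked up by RefSeq product name, a list chosen after seeing the data, which gave 37 more genes, 31 of them with a promoter candidate and 5 bound, beside 3.71% of all coding genes. F29B9.11, a cytochrome c oxidase subunit VIIc gene, had a signal of 111 (40.8 in replicate 1, 66.4 in replicate 2) and was in both replicates' lists. Its summit lay 356 bp upstream, and the peak was shared with jmjd-1.2, a histone demethylase gene. Y82E9BR.3, for the c subunit of the ATP synthase ring, had 100.1 (40.5 and 60.2), was in both lists and was alone at its peak, 281 bp upstream. R53.4, for ATP synthase subunit f, had 84.5 (31.8 and 58.2) and shared its peak with psf-1. T27E9.2, for subunit 6 of complex III, shared the ant-1.1 peak, and asb-2 was the fifth. The median best signal over the 31 genes was 31.1, and 14 were above the coding upper quartile.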
